A study of Mus musculus with 24 samples.

Results

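The 48 genes described here encode proteins that build ribosomes in the nucleolus: factors of RNA polymerase I, nucleolar scaffold proteins, parts of the small nucleolar ribonucleoproteins (snoRNPs) and assembly factors of both ribosomal subunits. They were taken by symbol from a list of known genes. The table lists 25239 genes, 14104 passed the filter on low values, and all 48 were among them. RNA-seq was performed on 6 mouse small cell lung cancer (SCLC) lines, each from a single tumor, so that the 3 samples of a group are 3 different lines. The tumors arose after Ad:CMV-Cre was given to mice with Rb1 flox/flox, Rbl2 flox/flox, Trp53 XTR/XTR and Rosa26 FlpO-ER alleles. Cre deletes the floxed Rb1 and Rbl2 segments, so all groups, controls included, carry these deletions by design. In Control cells Trp53 is off because of a gene trap, which FlpO removes when 4-hydroxytamoxifen is added (Restored). The study calls lines Type D when they lyse in the days after p53 returns and Type V when they stay viable and stop dividing. Each of the 3 Type D and 3 Type V lines gave 1 sample at 72 h as Control (vehicle), Control + CsA, Restored and Restored + CsA, and replicate numbers 1 to 3 name the lines of a type. CsA is cyclosporin A, a drug that inhibits cyclophilins.

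Ribosome production begins with RNA polymerase I, which copies the rDNA repeats into a long precursor. Box C/D snoRNPs methylate this precursor and box H/ACA snoRNPs turn chosen uridines into pseudouridine, while assembly factors fold, cut and export the subunits. The process is tied to growth and division, Myc is a known activator of many of its genes, and ribosomal proteins left over when it fails can bind Mdm2 and stabilise p53. Levels are given as TPM, which is scaled for gene length and to a fixed library total, and changes as differences of log2(TPM + 1). A gene is called at an adjusted p under 0.05 (limma, Benjamini-Hochberg over all genes tested).

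Trp53 was at 10.5 to 15.3 TPM in samples with the trap and at 181.5 to 252.7 TPM in Restored samples, and every library followed its label. Rb1 was still listed at 7.36 to 68.8 TPM, and a gene total does not show which exons are gone. Of the neuroendocrine markers, Chga, Calca and Neurod1 were at 0 or near it in Control and Restored samples (at most 0.0993 TPM), whereas Ncam1 was at 4.46 to 27.3 TPM. The 7 fibroblast markers summed to 0.634 to 1.34 TPM in Type D Control, 0.48 to 1.93 in Type D Restored, 226.8 to 500.3 in Type V Control and 89.1 to 193.9 in Type V Restored, and 6 of them reached 1 TPM in Type V Control. The 7 leukocyte markers summed to 7.97 to 11.2 TPM in the Control groups and 16.3 to 56.3 TPM in the Restored groups, mostly Cd68, with Ptprc at 0.127 TPM or less. Their part in the results was not tested. In bulk samples, fewer cells of a type and less RNA per cell cannot be told apart.

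Promoters of 42 of the 48 genes were found (RefSeq, GRCm38.p6). Those of the 3 members with the largest falls in Type D and of the member with the highest estimate are printed, since they stand for opposite signs of change. Each stretch of up to 250 bases ends before the first annotated start, runs 5′ to 3′ on the strand of the gene, and shows the GC box (GGGCGG, either strand) in capitals. They are chrX:75095604-75095853 on the plus strand (Dkc1), chr7:45830945-45831039 on the minus strand (Grwd1), chr19:46075597-46075846 on the plus strand (Nolc1) and chr10:88826815-88827064 on the minus strand (Utp20).
Dkc1: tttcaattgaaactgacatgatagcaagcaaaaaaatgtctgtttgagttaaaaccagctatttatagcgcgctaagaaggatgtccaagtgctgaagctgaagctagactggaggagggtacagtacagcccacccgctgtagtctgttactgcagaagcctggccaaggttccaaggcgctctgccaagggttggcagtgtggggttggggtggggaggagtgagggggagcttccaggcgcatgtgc
Grwd1: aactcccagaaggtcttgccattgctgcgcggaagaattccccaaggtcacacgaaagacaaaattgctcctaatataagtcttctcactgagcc
Nolc1: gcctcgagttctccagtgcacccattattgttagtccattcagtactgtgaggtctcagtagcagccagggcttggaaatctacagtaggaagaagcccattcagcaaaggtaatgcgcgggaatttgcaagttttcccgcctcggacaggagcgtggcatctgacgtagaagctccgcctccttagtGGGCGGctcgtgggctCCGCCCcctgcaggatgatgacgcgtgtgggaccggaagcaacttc
Utp20: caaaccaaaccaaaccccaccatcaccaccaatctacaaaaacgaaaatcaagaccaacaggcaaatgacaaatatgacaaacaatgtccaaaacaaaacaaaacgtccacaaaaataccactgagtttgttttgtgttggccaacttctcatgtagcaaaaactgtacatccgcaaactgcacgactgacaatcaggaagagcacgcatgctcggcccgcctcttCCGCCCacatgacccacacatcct
The Nolc1 stretch holds 2 GC boxes and the Utp20 stretch 1, and the letters were not found in those of Dkc1 and Grwd1. Not matched were Rrp12, Npm1, Rrs1, Bop1, Fbl and Gnl2.

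After p53 restoration many ribosome biogenesis genes fell in both types, by moderate amounts. In Type D, 14 of 48 members (29.2%) were called lower and 0 higher, where 5.05% of all genes were called lower and 7.82% higher. In Type V, 23 (47.9%) were called lower and 0 higher, against 4.57% and 5.38% of all genes. The median change over the members was −0.41 in Type D and −0.65 in Type V, beside 0.07 and 0.05 over all genes tested. A change of at least 1 log2, the size the study asks for, was reached among called members by Dkc1 in Type D (background 2.44%) and by Dkc1, Grwd1, Nop16 and Mrto4 in Type V (background 1.9%).

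The calls of the types shared 12 members, which is 12 of 14 in Type D and 12 of 23 in Type V. They comprise the box H/ACA genes Dkc1, Nop10, Nhp2 and Gar1, the box C/D gene Fbl, the scaffold genes Ncl and Nolc1, the polymerase gene Polr1b, and the assembly genes Wdr43, Grwd1, Mrto4 and Nop16. Bop1 and Nop56 were called in Type D alone, and Bysl, Ddx21, Nip7, Noc2l, Nop2, Pes1, Pno1, Polr1a, Rrp9, Rrs1 and Utp15 in Type V alone. The remaining 23 were called in neither, among them Npm1, Ubtf, Nop58, Gnl3 and Utp20, Rrn3 and Gnl2, whose estimates were positive in both types.

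The number of calls depended on how line differences were handled. With the cell line as a block, which compares each line with itself, 34 members were called lower and 3 higher in Type D (background 17.6% and 27.6%), and 42 lower and 1 higher in Type V (background 17.8% and 22.8%). Where a change is later said to pass with the block alone, only that fit and the main fit are compared. After median-ratio scaling of the libraries, 18 members were called lower in Type D and 29 in Type V (background 7.19% and 5.66%). That scaling turned the calls over all genes in Type D from 1103 higher and 712 lower to 957 and 1014. Quantile normalization turned those in Type V from 759 and 644 to 684 and 871. Without replicate 1, 2 or 3 of Type D, 4, 7 and 4 members were called in that type. Over all genes these fits called 511, 482 and 528 higher and 330, 308 and 369 lower, of 13981, 13952 and 13937 tested. Without replicate 1 or 2 of Type V, 9 and 10 members were called in that type. There 445 and 664 genes were called higher and 310 and 382 lower, of 13870 and 13877 tested. A fit to the 6 Type V samples alone called 1 member, beside 176 genes higher and 133 lower of 14104.

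Counts that need no model gave the following. For 25 members (52.1%) in Type D and 35 (72.9%) in Type V, all Restored samples lay below all Control samples, against 13.1% and 10.3% of all genes. The opposite order was found for 3 members in Type D, Rrn3, Utp20 and Gnl2, and for 0 in Type V, against 20.0% and 12.0% of all genes. Compared line by line, 38 members had lower values in each Type D line and 42 in each Type V line, against 26.1% and 25.3% of all genes. Of the 48, 37 were lower in each of the 6 lines and 1, Utp20, in none. No share over all genes was taken for the 6 lines together, so these counts have no background.

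**Figure D1:**
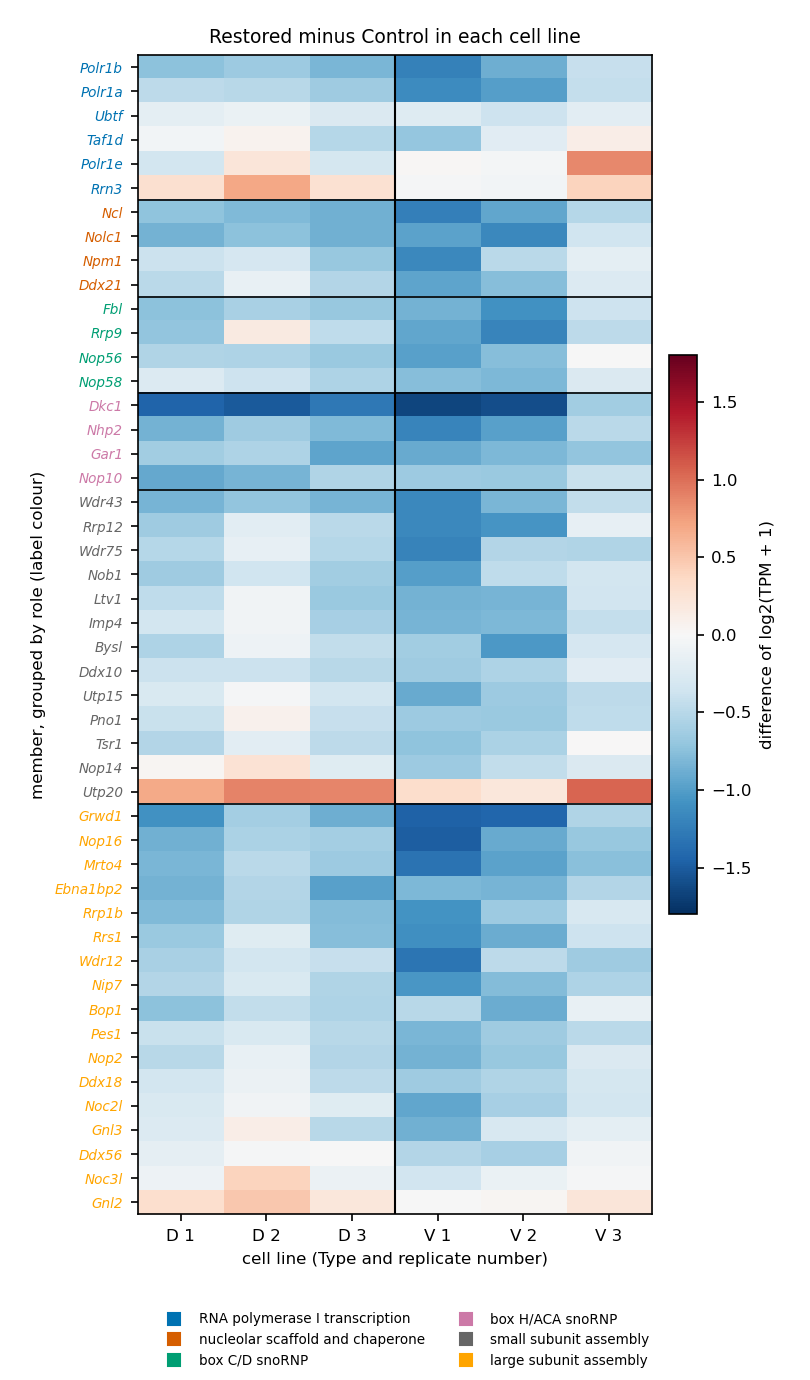
Heat map of the Restored minus Control difference of log2(TPM + 1) in the 6 lines (columns) for the 48 members (rows, grouped by role), with blue for lower and red for higher after restoration. The Dkc1 row is among the darkest, from −1.65 to −0.63, and the Utp20 row is red in all 6 lines.

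Lines of a type differed in the size of the change. The members' median was −0.52, −0.25 and −0.53 in Type D replicates 1, 2 and 3, and −0.88, −0.72 and −0.34 in the corresponding Type V lines. Type D replicate 2 and Type V replicate 3 had the medians closest to 0 in their types, with 10 and 6 members above 0. The summed level of the 48 genes was 5651 to 6568 TPM in Type D Control and 4285 to 4641 TPM in Type D Restored, and 6056 to 7759 and 4088 to 5050.0 TPM in the Type V groups, with no overlap in either type.

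Of the 6 genes of RNA polymerase I transcription, 1 was called lower in Type D and 2 in Type V, and estimates of both signs were found. Polr1b, the second largest subunit of the enzyme, was at 40.9, 48.7 and 41.2 TPM in the Type D Control lines and 24.1, 30.6 and 22.9 TPM in the Restored ones. The Type V lines had 48.5, 47.6 and 31.7 TPM as Control and 20.2, 25.3 and 23.6 TPM as Restored. Control and Restored samples did not overlap, and Polr1b fell by 0.74 on the log2 scale in Type D (SE 0.21, adjusted p = 0.0236) and by 0.84 in Type V (SE 0.21, adjusted p = 0.0125). Polr1a, the largest subunit, had 52.3, 81.4 and 60.3 TPM in Type D Control and 37.4, 57.1 and 38.3 TPM in Type D Restored. These samples overlapped, and the change of −0.54 passed with the block alone (adjusted p = 0.168, with the block 0.00567). Its Type V levels went from 71.3, 83.9 and 57.6 TPM to 32.1, 41.9 and 42.7 TPM without overlap, a fall by 0.85 (SE 0.24, adjusted p = 0.0304).

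Rrn3, the initiation factor that readies the polymerase for the promoter, had higher values in Type D. Its 63.3, 61.1 and 56.1 TPM in Control all lay below its 77.7, 99.4 and 68.4 TPM in Restored. The change of 0.42 (SE 0.15) missed the threshold and passed with the block (adjusted p = 0.0846, with the block 0.00787). Type V Control at 90.5, 78.8 and 77.4 TPM and Type V Restored at 89.2, 76.2 and 102.8 TPM overlapped, with a change of 0.11 (SE 0.15, adjusted p = 0.774). Ubtf, the upstream binding factor that keeps rDNA open, had 67.3, 61.9 and 67.8 TPM in Type D Control, each above the 59.7, 56.7 and 56.3 TPM of Type D Restored. Values in Type V were 103.1, 73.9 and 76.6 TPM in Control against 87.9, 56.8 and 67.0 TPM in Restored, which overlap. Its changes of −0.19 and −0.26 passed with the block alone (adjusted p = 0.572 and 0.409, with the block 0.0344 and 0.00542).

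For Taf1d and Polr1e the groups overlapped in both types and neither fit made a call. Taf1d, a subunit of the selectivity factor SL1, had 95.4, 56.0 and 74.9 TPM in Type D Control and 92.3, 58.4 and 52.4 TPM in Type D Restored, a change of −0.17 (SE 0.32, adjusted p = 0.843). For Type V the values were 115.8, 61.9 and 70.8 TPM and 70.9, 53.6 and 76.7 TPM, a change of −0.26 (SE 0.32, adjusted p = 0.736). Polr1e, a smaller subunit of the polymerase, had the lowest mean of the 48 genes (14.8 TPM over all samples). It went from 17.6, 11.0 and 17.6 TPM to 13.7, 12.9 and 13.9 TPM in Type D, a change of −0.15 (SE 0.24, adjusted p = 0.805). Type V Control had 18.9, 12.8 and 12.4 TPM and Type V Restored 19.1, 12.4 and 23.4 TPM, a change of 0.28 (SE 0.24, adjusted p = 0.588) that became −0.01 without replicate 3.

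**Figure D2:**
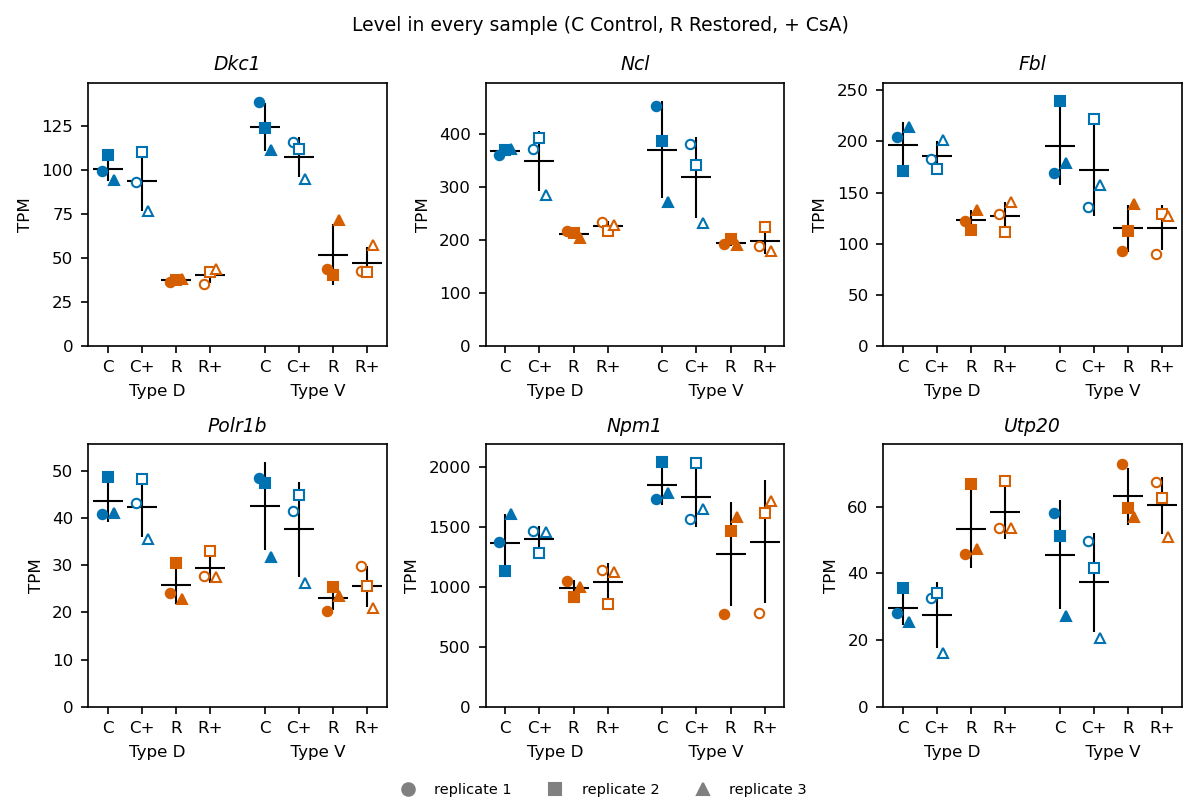
TPM of 6 members in all 24 samples, where points are samples (shape for the replicate number, filled without CsA and open with it, blue Control and orange Restored) and lines with bars give the mean and SD of 3 samples. Without CsA, Restored samples of Dkc1 lie at 35.9 to 37.9 TPM in Type D, below Control at 94.0 to 108.2 TPM. Restored samples of Utp20 in Type D lie above Control.

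Nucleolar scaffold and chaperone genes had 2 of 4 members called lower in Type D and 3 of 4 in Type V. Ncl encodes nucleolin, an abundant RNA-binding protein of the nucleolus. It was at 360.4, 371 and 371.7 TPM in Type D Control and 216.8, 213.2 and 202.9 TPM after restoration, and it fell by 0.80 (SE 0.18, adjusted p = 0.0054). The Type V lines went from 454.2, 386.9 and 271.8 TPM to 192.2, 202.3 and 190.3 TPM, a fall by 0.89 (SE 0.18, adjusted p = 0.0027). No Restored sample reached a Control sample, and the 6 Restored samples lay within 190.3 to 216.8 TPM. Nolc1, a scaffold that binds both classes of snoRNP, had 241.3, 141.9 and 196.4 TPM in Type D Control and 133.3, 84.3 and 107 TPM in Type D Restored, a fall by 0.82 (SE 0.24, adjusted p = 0.0312). With 212.4, 209.5 and 136.6 TPM in Type V Control and 108.1, 93.5 and 106.2 TPM in Type V Restored, it fell there by 0.83 (SE 0.24, adjusted p = 0.0355). Both comparisons were free of overlap. Ddx21, a nucleolar RNA helicase, was the other gene called in Type V, where it fell by 0.65 (SE 0.19, adjusted p = 0.0308).

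Npm1, nucleophosmin, was the most abundant of the 48 genes (mean 1379 TPM over all samples), and reads from its processed pseudogenes may enter its value. Type D Control had 1369, 1127 and 1607 TPM and Type D Restored 1050.0, 910.0 and 997.3 TPM. Type V Control had 1727, 2040.0 and 1781 TPM and Type V Restored 775.4, 1461 and 1578 TPM, with replicate 1 lowest. The groups were apart in each type, yet the changes of −0.46 and −0.60 passed with the block alone (adjusted p = 0.317 and 0.191, with the block 0.0392 and 0.0106).

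All 4 box H/ACA genes were called lower in both types. With the block this also held for the 4 scaffold and chaperone genes, and every box C/D and scaffold gene had a negative estimate in both types. Dkc1 encodes dyskerin, the pseudouridine synthase of these particles and a part of telomerase, and had the lowest estimate of the 48 members in each type. It dropped from 99.3, 108.2 and 94.0 TPM to 35.9, 37.5 and 37.9 TPM in Type D, where it fell by 1.41 (SE 0.19, adjusted p = 3.32e-05). The Type V lines had 138.4, 123.8 and 111.3 TPM in Control and 43.3, 40.2 and 71.6 TPM in Restored, a fall by 1.29 (SE 0.19, adjusted p = 0.000135). Control and Restored did not overlap, and Type V replicate 3 kept the highest Restored value.

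The partners of dyskerin in the particle had smaller estimates than Dkc1. Nop10 fell by 0.77 in Type D (SE 0.13, adjusted p = 0.000511) and by 0.57 in Type V (SE 0.13, adjusted p = 0.00747). Nhp2 fell by 0.76 (SE 0.21, adjusted p = 0.0224) and by 0.89 (SE 0.21, adjusted p = 0.0107). Gar1 fell by 0.71 (SE 0.16, adjusted p = 0.00466) and by 0.81 (SE 0.16, adjusted p = 0.00205). Together with Dkc1 these genes summed to 626.2 to 693.1 TPM in Type D Control and 336.2 to 393.1 TPM in Type D Restored, and to 640.9 to 655.6 and 318.1 to 457 TPM in Type V.

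Of the box C/D genes, 2 of 4 were called lower in each type. Fbl encodes fibrillarin, the methyltransferase of the particle. Type D Control had 204, 171.1 and 214.6 TPM and Type D Restored 122.5, 113.6 and 133.1 TPM, a fall by 0.67 (SE 0.19, adjusted p = 0.0268). Type V went from 168.9, 239.9 and 179.1 TPM to 92.8, 112.7 and 138.8 TPM, a fall by 0.77 (SE 0.19, adjusted p = 0.0137). Neither comparison had overlapping samples. Nop56, a core protein of the particle, fell by 0.59 in Type D (SE 0.19, adjusted p = 0.0447), and its change in Type V was −0.58 (adjusted p = 0.0568). Rrp9, which binds the U3 snoRNA, fell by 0.86 in Type V (SE 0.21, adjusted p = 0.00962), and its change in Type D was −0.33 (adjusted p = 0.345). Nop58, the partner of Nop56, changed by −0.39 and −0.61 and passed with the block alone (adjusted p = 0.384 and 0.164, with the block 0.00816 and 0.000403).

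Among 13 genes of small subunit assembly, 1 was called lower in Type D and 4 in Type V, or 8 and 12 with the block. Their median change was −0.39 in Type D and −0.65 in Type V. Wdr43, a processome protein, was called in both. It went from 109.2, 121.1 and 126.1 TPM to 60.6, 73.6 and 70.5 TPM in Type D and fell by 0.79 (SE 0.17, adjusted p = 0.00292). In the Type V lines 197.1, 146.6 and 124.4 TPM became 87.7, 82.3 and 91.1 TPM, a fall by 0.81 (SE 0.17, adjusted p = 0.00308), again without overlap. The others called in Type V were Utp15 (a fall by 0.68), Bysl (0.65) and Pno1 (0.59), which act in the processome or on the late small subunit particle. The 7 small subunit genes called in neither type and not described below, Nob1, Rrp12, Ddx10, Ltv1, Tsr1, Wdr75 and Imp4, had changes from −0.54 to −0.33 in Type D and from −0.80 to −0.43 in Type V, and all but Rrp12 in Type D passed with the block.

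Utp20, a very large scaffold of the processome, had higher values after restoration in every line. Type D Control had 28.1, 35.5 and 25.3 TPM and Type D Restored 45.7, 66.9 and 47.4 TPM, with no overlap. Type V Control had 58.2, 51.3 and 27.1 TPM and Type V Restored 72.9, 59.5 and 56.7 TPM, which overlap. The changes of 0.82 and 0.52 (SE 0.32 in both) passed with the block alone (adjusted p = 0.107 and 0.378, with the block 0.0023 and 0.0364). Nop14, another processome protein, had 79.0, 87.9 and 87.2 TPM in Type D Control and 81.2, 105.9 and 74.6 TPM in Type D Restored. This change of 0.03 (SE 0.16, adjusted p = 0.976) was small beside its error and took a negative sign under median-ratio scaling, quantile normalization and without Type D replicate 2. In Type V, 129.1, 94.5 and 100.9 TPM in Control lay above 81.7, 69.2 and 83.7 TPM in Restored. This change of −0.45 missed the threshold in the main fit and passed with the block (adjusted p = 0.0789, with the block 0.00814).

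Of 17 genes of large subunit assembly, 4 were called lower in Type D and 8 in Type V, or 12 and 15 with the block. Grwd1, a WD-repeat protein bound to ribosomal particles, went from 78.2, 62.4 and 66.8 TPM to 36.2, 40.6 and 35.9 TPM in Type D and fell by 0.86 (SE 0.18, adjusted p = 0.00294). Type V had 86.5, 88.3 and 54.9 TPM in Control and 30.9, 32.3 and 37.4 TPM in Restored, a fall by 1.14 (SE 0.18, adjusted p = 0.000298). Both changes were larger than the spread of the lines, with no overlap.

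Nop16, a protein of early large subunit particles, had 79.0, 72.8 and 66.6 TPM in Type D Control and 42.7, 48.6 and 43.2 TPM in Type D Restored, a fall by 0.69 (SE 0.14, adjusted p = 0.00214). The Type V values of 85.1, 66.6 and 61.0 TPM and 29.7, 35.0 and 37.8 TPM gave a fall by 1.03 (SE 0.14, adjusted p = 6.07e-05). Mrto4 holds the place of a ribosomal stalk protein on the maturing subunit. It went from 92.5, 62.7 and 72.1 TPM to 52.0, 44.4 and 45.2 TPM in Type D, a fall by 0.66 (SE 0.20, adjusted p = 0.0343). In Type V it went from 114.2, 84.9 and 66.8 TPM to 44.8, 43.0 and 39.2 TPM, a fall by 1.02 (SE 0.20, adjusted p = 0.00209). Nop16 and Mrto4 samples did not overlap between Control and Restored in either type. Among the genes called in Type V but not in Type D, Nip7 fell by 0.80, Rrs1 by 0.79, Noc2l by 0.62 and Nop2 by 0.60. Ebna1bp2, Rrp1b, Ddx18 and Ddx56 were called in neither type, with changes from −0.78 to −0.06 in Type D and from −0.72 to −0.39 in Type V, and all but Ddx56 in Type D passed with the block.

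Pes1, Bop1 and Wdr12 encode 1 complex of large subunit rRNA processing. Bop1 fell by 0.58 in Type D (SE 0.19, adjusted p = 0.0447), Pes1 fell by 0.64 in Type V (SE 0.15, adjusted p = 0.00719), and Wdr12 passed with the block alone (adjusted p = 0.405 and 0.104, with the block 0.0186 and 0.000336). Gnl2 and Gnl3 encode related nucleolar GTPases. Gnl2 had 74.5, 62.1 and 74.9 TPM in Type D Control, all below the 92.3, 87.5 and 86.7 TPM of Type D Restored, a change of 0.33 (SE 0.17) that passed with the block alone (adjusted p = 0.234, with the block 0.00451). Its Type V samples, 103.9, 69.0 and 73.0 TPM and 102.9, 71.0 and 84.8 TPM, overlapped, with a change of 0.08 (SE 0.17, adjusted p = 0.878). Gnl3, nucleostemin, changed by −0.21 in Type D (adjusted p = 0.773) and −0.44 in Type V (adjusted p = 0.472, with the block 0.04). Noc3l, a factor of pre-60S export, had 52.95, 33.9 and 40.4 TPM in Type D Control and 49.8, 45.1 and 37.6 TPM in Type D Restored, and 47.9, 48.5 and 41.3 and 37.3, 44.4 and 40.7 TPM in Type V. Its groups overlapped, and the changes were 0.07 (adjusted p = 0.915, negative under the same 3 settings as for Nop14) and −0.16 (adjusted p = 0.742).

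**Figure D3:**
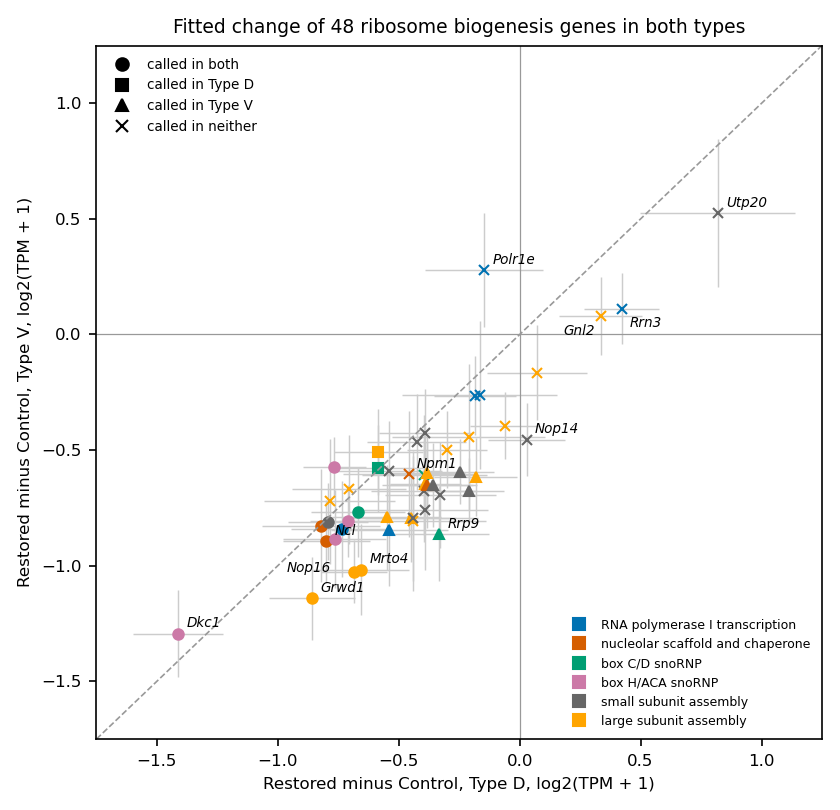
Fitted Restored minus Control change of log2(TPM + 1) of the 48 members in Type D (x axis) and Type V (y axis), with bars of 1 SE, colours for roles and symbols for the calls; the dashed line marks equal change. Most points lie in the lower left and below the dashed line, Dkc1 is farthest out at −1.41 and −1.29, and Utp20, Rrn3 and Gnl2 are above 0 on both axes.

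Whether the response itself differed between lines that lyse and lines that survive was tested as the Type D change minus the Type V change. No member was called (limma), where 0.0284% of all genes were. An unadjusted p under 0.05 was found for 2 members, Utp15 and Nop14, and for 540 of 14104 genes. The block called 0 members (background 5.57%). The members' median difference was 0.23, beside 0.04 over all genes, and 41 of 48 differences were above 0. Intervals here come from the fit without the block, which does not use the pairing of samples by line. Rrp9 had the largest difference, 0.53, with a 95% interval of −0.08 to 1.14. For Dkc1 it was −0.12 (−0.67 to 0.44), for Ncl 0.09 (−0.44 to 0.63) and for Utp15 0.47 (0.05 to 0.89). Calls made in one type alone are therefore not shown to be particular to it.

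Levels in Control were compared between the types next. No member was called (limma), where 13.1% of all genes were. An unadjusted p under 0.05 was found for 10 members and for 3850 of 14104 genes. The median of the members was −0.12 and that of all genes −0.12, and median-ratio scaling moved the latter to −0.02. Quantile normalization changed the calls over all genes from 834 higher and 1017 lower to 1035 and 844. Ebna1bp2, a large subunit factor, had 201.2, 85.1 and 146.5 TPM in Type D and 103.3, 84.5 and 82.6 TPM in Type V, the largest positive difference (0.59, SE 0.27, adjusted p = 0.162). Nop10 had 237.9, 282.7 and 230.4 TPM against 201.9, 205.2 and 198.9 TPM, which do not overlap (0.30, SE 0.13, adjusted p = 0.142). Nop2, an rRNA methyltransferase, had 222.3, 164.4 and 190.4 TPM against 175.6, 180.8 and 132.8 TPM (0.24, SE 0.16, adjusted p = 0.352). Of these, the Nop10 groups alone were apart.

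On the other side stood Nob1, the nuclease of the last cut in small subunit rRNA, with 133.9, 84.6 and 115.8 TPM in Type D Control and 209.7, 158.5 and 127 TPM in Type V Control (−0.56, SE 0.22, adjusted p = 0.0998). Rrp12, an export factor, had 46.2, 25.1 and 33.0 TPM against 59.0, 52.4 and 33.6 TPM (−0.47, SE 0.27, adjusted p = 0.275), and Utp20 differed by −0.55 (SE 0.32, adjusted p = 0.287). All these groups overlapped. Of the 13 small subunit genes, 12 had lower estimates in Type D. In Restored samples 0 members were called between the types (limma), where 14.8% of all genes were. An unadjusted p under 0.05 was reached by 7 members and by 4120 of 14104 genes. Without any one line, at most 2 members were called in either comparison. These were 2 in Control without Type V replicate 3 and 2 in Restored without Type V replicate 1. Over all genes those fits called 592 and 831 higher and 677 and 988 lower.

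CsA alone called no member. In Control cells it gave 0 calls in Type D and in Type V, with and without the block (limma, background without the block 0.0% and 0.0%). In the fit without the block 0 members had an unadjusted p under 0.05, beside 114 and 54 of 14104 genes. The members' medians were −0.08 and −0.16, beside −0.03 and −0.01 over all genes tested. All 48 estimates in Type V were below 0, from −0.31 to −0.01. In Restored cells CsA again gave 0 calls in both types (limma, background 0.0142% and 0.0%). An unadjusted p under 0.05 was found for 0 members, beside 229 and 100 of 14104 genes. The medians there were 0.08 and 0.01, beside 0.004 and −0.02 over all genes tested. Members vary together across samples, so estimates on one side of 0 are not independent counts.

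With CsA in both groups (Restored + CsA against Control + CsA), 5 members (10.4%) were called lower and 2 (4.17%) higher in Type D, against 2.91% and 5.98% of all genes. The members called lower were Dkc1, Nop16, Gar1, Ncl and Nop10. Rrn3 rose by 0.56 (SE 0.15, adjusted p = 0.0286), from 62.3, 64.3 and 46.8 TPM to 83.7, 85.7 and 84.5 TPM. Utp20 rose by 1.12 (SE 0.32, adjusted p = 0.0336), from 32.5, 34.1 and 16.1 TPM to 53.6, 67.8 and 53.6 TPM. Neither gene's groups overlapped. The block gave 22 lower and 3 higher (background 14.0% and 27.2%). Without Type D replicate 1, 2 or 3, 1, 4 and 3 members were called, all of them lower. Over all genes those fits called 204, 231 and 217 lower. Median-ratio scaling changed the calls over all genes from 843 higher and 411 lower to 653 and 683.

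In Type V, 10 members (20.8%) were called lower with CsA and 0 higher, against 3.4% and 4.3% of all genes, and the block gave 38 and 1 (background 16.5% and 20.6%). Dkc1 again had the lowest estimate, with 115.7, 111.9 and 94.5 TPM in Control + CsA and 42.4, 41.8 and 57.1 TPM in Restored + CsA, a fall by 1.18 (SE 0.19, adjusted p = 0.000318). Without Type V replicate 1 or 2, 3 members were called each time, and without Type D replicate 3, 5. Over all genes those fits called 407, 516 and 441 higher and 324, 290 and 362 lower. The 5 members called lower with CsA in Type D and the 10 in Type V were all called lower without CsA too, where the counts were 14 and 23.

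The effect of CsA on the response was tested directly, as the change with CsA minus the change without it. It gave 0 calls in both types (limma, background 0.0% and 0.0%). An unadjusted p under 0.05 was found for 0 members, beside 56 and 23 of 14104 genes. The members' medians were 0.19 and 0.16, beside 0.03 and −0.01 over all genes tested, with 44 and 47 of 48 estimates above 0. The smaller number of calls with CsA is thus not shown to be a difference in the response. For Dkc1 the difference in the fit without the block was 0.22 in Type D (95% interval −0.33 to 0.78) and 0.11 in Type V (−0.44 to 0.67).

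**Figure D4:**
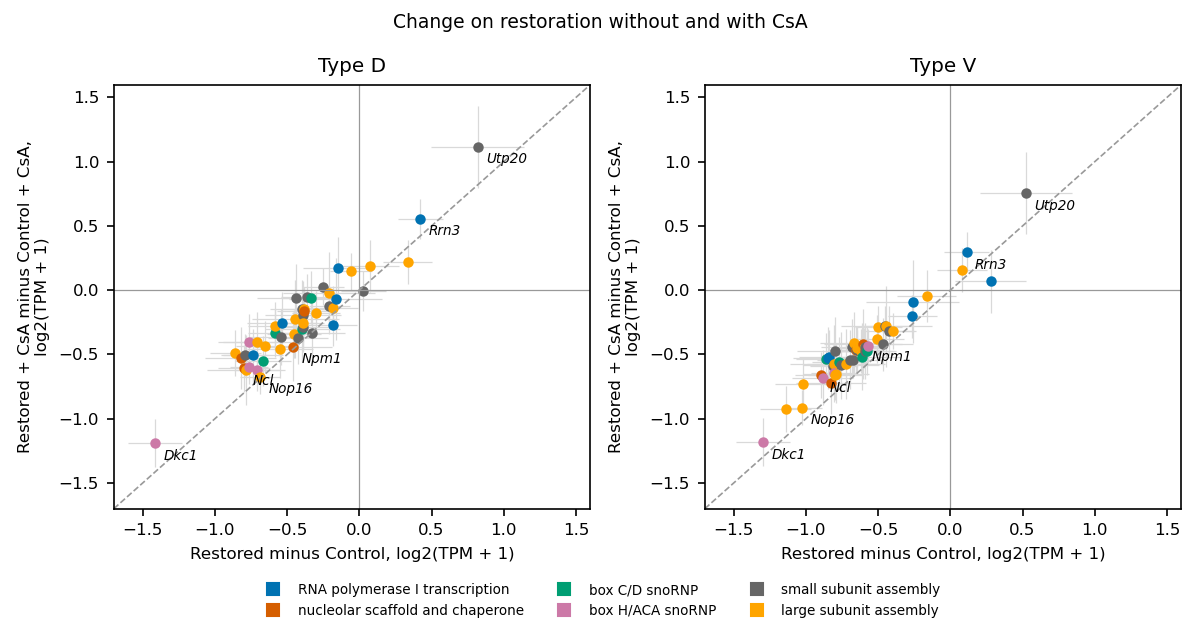
Restored minus Control change of log2(TPM + 1) of the 48 members without CsA (x axis) and with it (y axis) in Type D (left) and Type V (right), with bars of 1 SE and colours for roles; the dashed line marks equal change. Most points lie slightly above the dashed line, Dkc1 has the lowest value on every axis and Utp20 is above 0 on all of them.

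Other genes of ribosome production were read from further lists of known genes. Of 112 other biogenesis genes, 13 were called lower and 5 higher in Type D (median −0.19), and 26 lower and 2 higher in Type V (median −0.40). Over all genes 5.05% and 7.82% were called so in Type D, and 4.57% and 5.38% in Type V. With the block the counts for this list were 44 lower and 10 higher in Type D and 69 lower and 5 higher in Type V, beside 17.6% and 27.6% of all genes in the former and 17.8% and 22.8% in the latter. Exosc8, a subunit of the RNA exosome, fell by 1.41 in Type D and fell by 1.498 in Type V (adjusted p = 0.000502 and 0.000374). Tcof1, or treacle, a partner of RNA polymerase I, fell by 1.02 and 1.34 (adjusted p = 0.0121 and 0.00192). Rrp36, a small subunit processing factor, rose by 1.16 and 0.96 (adjusted p = 9.5e-06 and 0.000117). Ttf1, the terminator of RNA polymerase I, rose by 0.70 and 0.56 (adjusted p = 0.0112 and 0.0479). This wider list therefore held genes called in both directions.

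Genes of the ribosome itself were read in the same way. Among 78 cytosolic ribosomal protein genes tested, Rps2 and Rps25, both of the small subunit, were called lower in each type and 0 higher, with list medians of −0.26 and −0.17. With the block, 28 lower and 0 higher were called in Type D and 16 lower and 2 higher in Type V. Their many processed pseudogenes make single values uncertain. Per line the list's median was −0.58, 0.16 and −0.07 in Type V replicates 1, 2 and 3, so that its sign differed between lines in which the 48 biogenesis genes had negative medians. Of 77 mitochondrial ribosomal protein genes, 9 were called lower in Type D and 6 in Type V and 0 higher (medians −0.29 and −0.30). The block gave 48 lower and 1 higher in Type D and 44 lower and 0 higher in Type V for the mitochondrial list. The shares over all genes given for the other biogenesis genes are the background of these counts too.

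Cell cycle genes had a larger median change than any of these lists. Of 25, 14 were called lower in each type (medians −2.84 and −1.91), where 5.05% and 4.57% of all genes were. Among them was the mitotic kinase Plk1, which fell by 3.79 and 2.56 (adjusted p = 3.84e-06 and 0.000391). The list did not fall as a whole. Mean TPM of the replication gene Mcm2 went from 253.0 to 269.6 in Type D and from 293.5 to 255.2 in Type V. That of E2f1 went from 41.4 to 56.4 and from 57.0 to 78.1. Of 10 Myc family genes, Mxd3 fell and Mxd1 rose in both types, and Mycl fell in Type D. Myc itself had 259.4, 147.2 and 362.4 TPM in Type D Control and 313.4, 128.2 and 323.5 TPM in Type D Restored, overlapping groups with a change of −0.03 (SE 0.34). Its Type V samples did not overlap, at 228.1, 162.2 and 164.4 TPM and 158.5, 110.1 and 109.5 TPM, and the change of −0.55 passed with the block alone (adjusted p = 0.39, with the block 0.00265).

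**Figure D5:**
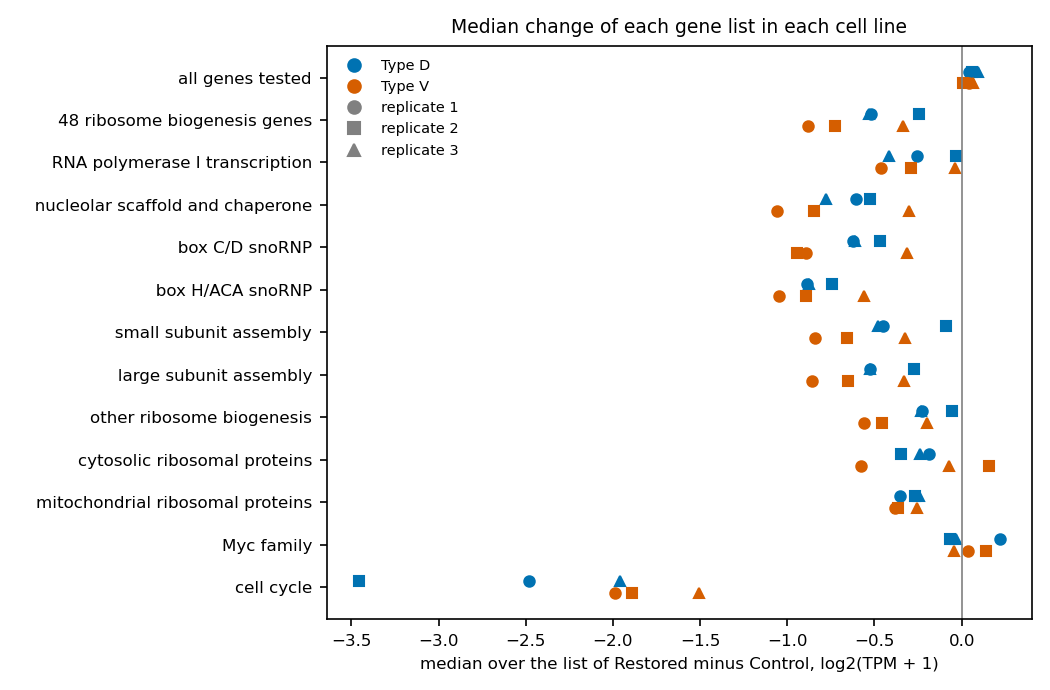
Median Restored minus Control change of log2(TPM + 1) of each gene list in each of the 6 lines (blue Type D, orange Type V, shape for the replicate number). The medians of the 48 genes run from −0.88 to −0.25, those of all genes lie near 0, and those of cytosolic ribosomal proteins lie on both sides of 0.

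Features that the list did not use were read from the annotation, with no test of a difference from other genes. The members lie on 18 chromosomes (GENCODE M21, GRCm38), and 8 of them (16.7%) contain annotated snoRNA genes on their own strand, against 1.62% of 12828 tested protein-coding genes. The hosts are Taf1d, Ncl, Nop56, Nop58, Dkc1, Wdr43, Tsr1 and Gnl3, with 29 snoRNA genes in all. Their median changes were −0.49 in Type D and −0.59 in Type V, beside −0.41 and −0.66 for the other 40 members.

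Promoter windows of 300 bases, 250 before to 50 after the start, were searched on both strands for 4 motifs. The E-box CACGTG, read by Myc and related factors, was in 19.6% of the members' 51 promoters (10 of 42 genes), against 9.62% for tested genes and 7.15% of all promoters. The GC box GGGCGG was in 72.5%, against 61.1% and 35.7%. The NRF1 core TGCGCA was in 15.7%, against 13.1% and 7.76%, and the CHR element TTTGAA, known from cell cycle promoters, in 11.8%, against 12.1% and 17.9%. The E-box and the NRF1 core can share bases at their ends. The 10 genes with an E-box had median changes of −0.39 in Type D and −0.62 in Type V, beside −0.43 and −0.66 for the 32 without. Grwd1 and Utp20, whose estimates had opposite signs, both hold one, 35 and 38 bases after the start and so beyond the stretches printed. A match of letters is a description, not a binding site.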

How the data were processed

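The authors deposited 1 table of TPM values for 24 samples, made from stranded mRNA libraries. Their methods name Kallisto or HISAT2 and both mm10 and GRCm39 without saying which lies behind the table. TPM holds no depth, so depth is unknown and no count test was run. The table was used as deposited, as log2(TPM + 1), which understates changes of low genes. Linear models over 8 groups were fitted to genes with at least 1 TPM in at least 3 samples by limma 3.58.1 (R 4.3.3), whose eBayes step used a trend, with two-sided tests and Benjamini-Hochberg adjustment over the 14104 genes within each of 13 comparisons. Samples of a line are paired by the labels, and deviations from group means correlated with r from 0.599 to 0.929 within lines and from −0.727 to 0.0438 between lines of a type. P-values of the main fit measure the spread between lines of a group, pooled over the 8 groups. Those of the block measure the spread of changes within lines. The main fit treats the samples of a line as independent, though Type D against Type V has 3 lines on each side. The 48 members, the 5 further lists and the tests were chosen with earlier results of these data known. Full values are given for the polymerase I genes, Ncl, Npm1, Fbl, Dkc1 and the 5 largest changes in each direction and type. The scripts were tested on simulated data. Figures were drawn with matplotlib 3.10.9.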

Additional observations from a re-analysis of the deposited data

How the results depend on the processing

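The settings tried in turn were no filter, a minimum of 5 TPM, a pseudocount of 0.1, quantile normalization, median-ratio scaling, a fit to the compared groups alone, the cell line as a block, and each line left out in turn. With the block, 37 members were called after restoration in Type D and 43 in Type V, and 25 and 39 with CsA present, against 14, 23, 7 and 10 without it. No paired analysis was possible for Type D against Type V because each line belongs to 1 type, and the block left the other counts at 0. The compared groups alone gave 1 call for restoration in Type V, and 4 and 2 with CsA in Type D and Type V. Over all genes those fits called 176, 774 and 164 higher and 133, 408 and 120 lower. Type D against Type V in Control had 1 call after median-ratio scaling, and in Restored 1 without the filter and 2 after either scaling. Over all genes that Control fit called 1027 higher and 853 lower of 14104. Without the filter the Restored fit called 911 higher and 1090 lower of 20066. Of 14104 genes it called 1157 and 1031 after quantile normalization, and 1053 and 1116 after median-ratio scaling. With each line left out, the members called ran from 4 to 15 in Type D and from 9 to 28 in Type V for restoration. They ran from 1 to 10 and from 3 to 9 with CsA, and from 0 to 2 for either comparison of types.

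Of the named members' fitted changes under these settings, 431 kept their direction and side of the threshold, 41 lost the threshold, 13 gained it and 9 changed sign. In Type D, Noc3l became −0.03648 and Nop14 −0.04793 after quantile normalization, and −0.02688 and −0.07073 after median-ratio scaling. With lines left out, Noc3l ran from −0.09438 to 0.1585, Nop14 from −0.09075 to 0.1533 and Taf1d from −0.2774 to 0.006099 in Type D, while Polr1e ran from −0.01127 to 0.4387 and Rrn3 from −0.03396 to 0.1925 in Type V. The causes were not tested. The interaction of CsA with restoration was added after the data were seen.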
